A study of Mus musculus with 9 samples.

Results

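The 42 genes described here encode the enzymes that keep glutathione and thioredoxin reduced, that remove superoxide and peroxides, and that join glutathione to reactive compounds, together with the sensor and the transcription factor that control many of them. The rule that defines the set is a list of gene names, and all 42 were found among the 49315 genes of each count file. All 42 also passed the filter on low counts, which left 14747 genes. The RNA came from brown adipose tissue, the mitochondria-rich fat depot that makes heat, of male C57Bl/6J mice with obesity induced by a diet with 60% fat. One group was given cotadutide, a single peptide that activates the receptors of both glucagon and GLP-1, and the other was given vehicle, each daily under the skin for 28 days. There were 5 cotadutide and 4 vehicle mice, 1 polyA library per mouse. Both groups shared strain, sex, diet, single housing, an age of 14 weeks before 3 weeks of acclimation, a weight of about 50 g, and housing that was not thermoneutral. Mice of this strain carry a loss-of-function deletion in Nnt, a mitochondrial source of the NADPH that these enzymes use, a background that both groups would share. Library totals were 10759631 to 19459796 counts for cotadutide and 16064055 to 25108534 counts for vehicle. Values are in CPM, the counts of a gene relative to the scaled total count of its library. Each list of values runs over mice 1 to 5 of the cotadutide group and mice 1 to 4 of the vehicle group, and log2 fold changes are cotadutide over vehicle.

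Superoxide dismutases turn superoxide into hydrogen peroxide. Glutathione peroxidases and peroxiredoxins then reduce the peroxide, with electrons that come from NADPH through glutathione reductase, or through thioredoxin reductase and thioredoxin. Glutathione itself is made in the cytosol by glutamate-cysteine ligase (a catalytic subunit, Gclc, and a modifier, Gclm) and glutathione synthetase. Keap1 marks the transcription factor NRF2, the product of Nfe2l2, for breakdown until oxidants or electrophiles block it. NRF2 then binds antioxidant response elements beside genes such as Nqo1, Gclc and Gclm. Brown fat mitochondria run at high respiratory flux, and many of these enzymes have a mitochondrial and a cytosolic form encoded by separate genes.

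Members of the glutathione peroxidase family differ at the codon for the residue that attacks the peroxide, and the windows of coding sequence show which members depend on selenium. The capitals mark that codon, a TGA read as selenocysteine where the annotation places one, or else the codon for cysteine at the matching place. The sequences are those of the GENCODE M21 transcripts on GRCm38.
Gpx1, chr9:108339439-108339465, plus strand: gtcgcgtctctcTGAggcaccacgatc
Gpx3, chr11:54907244-54907270, plus strand: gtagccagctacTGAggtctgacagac
Gpx4, chr10:80054725-80054751, plus strand: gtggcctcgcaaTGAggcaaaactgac
Gpx7, chr4:108403418-108403444, minus strand: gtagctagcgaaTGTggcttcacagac
Gpx8, chr13:113045649-113045675, minus strand: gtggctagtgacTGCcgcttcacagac
Gpx1, Gpx3 and Gpx4 carry TGA, while Gpx7 and Gpx8 carry the cysteine codons TGT and TGC. Both thioredoxin reductases carry TGA as the last codon but 1 before the stop, as the ends of their coding sequences show.
Txnrd1, chr10:82896019-82896045, plus strand: atcctccagtctggctgcTGAggttaa
Txnrd2, chr16:18477754-18477780, plus strand: cctactgtgactggttgcTGAggctaa

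The core of the antioxidant response element, TGACNNNGC, was searched on both strands of the RefSeq promoters (GRCm38.p6, 250 bases before to 50 after each annotated start), since several members are textbook NRF2 targets. Of the 37 members with a promoter in that table, 9 held it, or 24.3%, against 14.0% of all 27025 genes with a promoter there. Among the genes that rose it was in 2 of 9, and among the genes that fell in 2 of the 4 with a promoter. Gclc, which also fell, had no promoter there and was not searched. Nqo1 had no match, but bases outside this stretch were not searched, so this does not show that it lacks an element. The matches in members past the threshold, and those of Prdx1, Txnrd1 and Srxn1, are given on the strand of the gene with the element in capitals. An element on the other strand reads as its reverse complement, as in all but that of Gsta3.
Gsta3, chr1:21240454-21240482, plus strand: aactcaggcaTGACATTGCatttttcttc
Gclm, chr3:122245413-122245441, plus strand: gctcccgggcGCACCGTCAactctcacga
Mgst1, chr6:138140461-138140489, plus strand: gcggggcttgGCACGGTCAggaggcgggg
Sod1, chr16:90220696-90220724, plus strand: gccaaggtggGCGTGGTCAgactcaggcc
Prdx1, chr4:116685456-116685484, plus strand: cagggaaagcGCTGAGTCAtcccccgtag
Txnrd1, chr10:82859104-82859132, plus strand: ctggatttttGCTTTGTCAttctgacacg
Srxn1, chr2:152105542-152105570, plus strand: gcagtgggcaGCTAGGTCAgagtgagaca
The same letters lay beside genes that rose, genes that fell and genes that did not pass the test. Nfe2l2 and Gstm5 held them too. A match describes the letters and is not shown to be a binding site.

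Cotadutide-treated brown fat carried more mRNA of 9 of the 42 genes and less of 5. In bulk tissue, fewer cells of a type and less RNA per cell cannot be told apart. Gpx3, Gpx8, Prdx5, Txn1, Sod1, Glrx5, Gstk1, Gstz1 and Mgst1 rose, and Gclc, Gclm, Nqo1, Gsta3 and Mgst2 fell (edgeR's quasi-likelihood test, Benjamini-Hochberg adjusted p under 0.05 over all genes tested). These are 21.4% of the members higher and 11.9% lower, against a background of 9.31% and 9.34% of all genes tested. The groups did not overlap for 10 members (23.8%), against 15.8% of all genes tested. The median log2 fold change of the members was 0.11, against 0.003 over all genes, with 26 members above 0 and 16 below. The adjusted calls moved with single libraries: with vehicle mouse 1 or vehicle mouse 2 left out, 0 of the 42 passed by edgeR, although 21 and 18 had an unadjusted p under 0.05, against 21 with all libraries. Leaving out vehicle mouse 3 gave 4 higher and 1 lower. Leaving out cotadutide mouse 2 gave 6 and 0 (20 members unadjusted), mouse 3 gave 6 and 1, mouse 4 gave 10 and 1, and mouse 5 gave 6 and 3. Each of the 14 genes kept its direction in all of these fits. The 14 were picked from the same libraries, so a kept direction is not separate support.

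**Figure D1:**
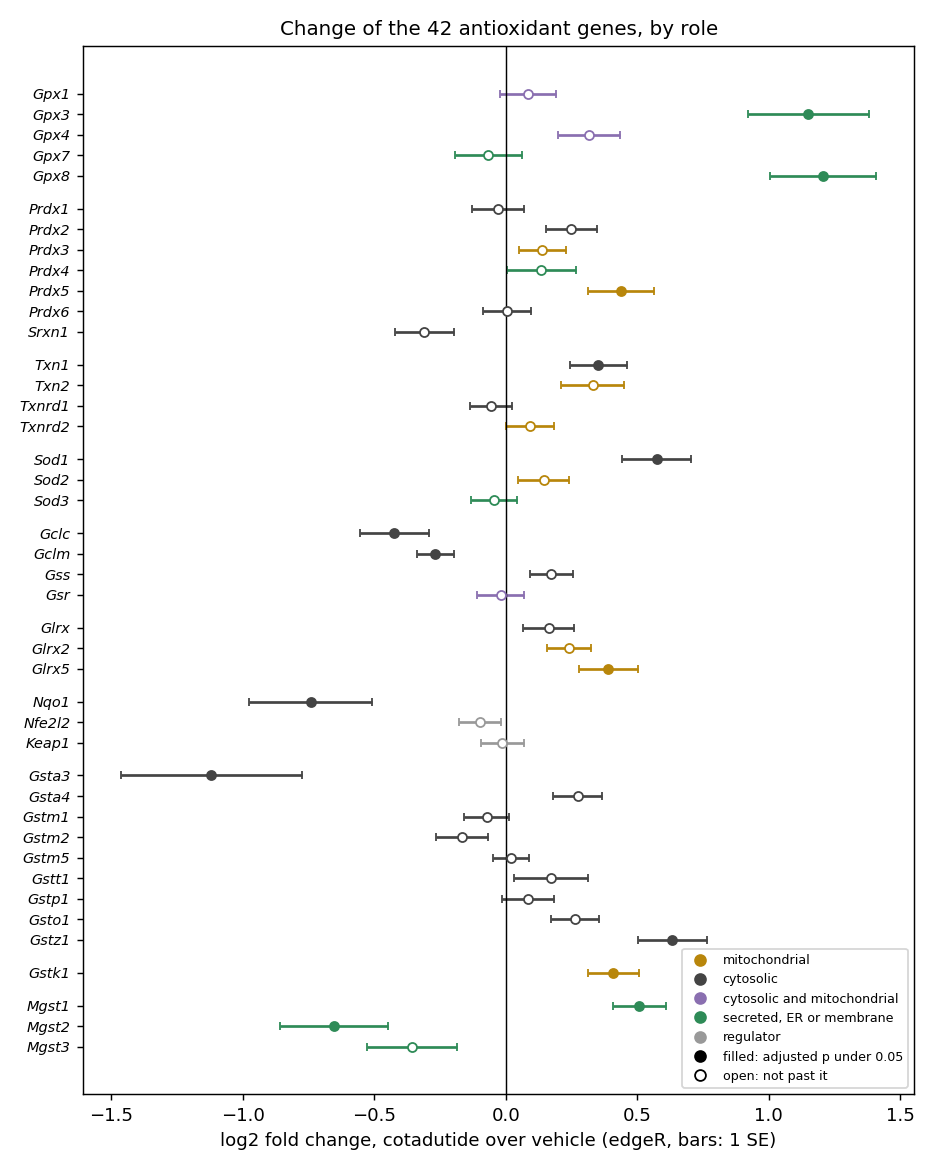
Log2 fold change of cotadutide over vehicle for the 42 genes (points, with bars of 1 SE), grouped by role from top to bottom and coloured by compartment, with filled points for genes past the adjusted p threshold. Gpx8 at 1.21 and Gpx3 at 1.15 lie farthest to the right and Gsta3 at -1.12 farthest to the left. Every enzyme of the mitochondrial class lies above 0, and Gsr, of the class in both cytosol and mitochondria, lies at -0.02.

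The RNA of other cell types in the tissue differed between the groups too. For the counts below, the share of all genes tested was 9.31% higher and 9.34% lower. Of 12 macrophage markers, 7 fell and 0 rose, and their summed level was 232 to 479 CPM in cotadutide mice and 379 to 622 CPM in vehicle mice. Of 12 skeletal muscle markers, 6 fell and 0 rose, and their sum was 4808 to 17997 CPM in cotadutide mice and 20656 to 44838 CPM in vehicle mice, with no overlap. Markers shared by brown and white adipocytes summed to 17626 to 20893 CPM and 13092 to 14948 CPM in the same order, with 3 of 6 higher, and brown adipocyte markers to 10283 to 14825 CPM and 7147 to 10681 CPM, with 2 of 8 higher. Ucp1, the defining marker of brown fat, was present in every library at 4879 to 6693 CPM in cotadutide and 3762 to 6048 CPM in vehicle mice. No marker of these 4 lists was at 0. Fibroblast markers summed to 537 to 1258 CPM in cotadutide and 965 to 1536 CPM in vehicle mice (0 of 7 past the threshold, all 7 below 0). Neutrophil markers, at very low levels, summed to 1.52 to 5.26 CPM in cotadutide and 1.21 to 2.65 CPM in vehicle mice, and of the 3 with enough counts to test 1 rose, Elane, and 0 fell. Of 6 endothelial markers 1 rose, Emcn, and 0 fell, and of 5 erythroid markers tested 0 passed; the sums of both lists overlapped.

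**Figure D2:**
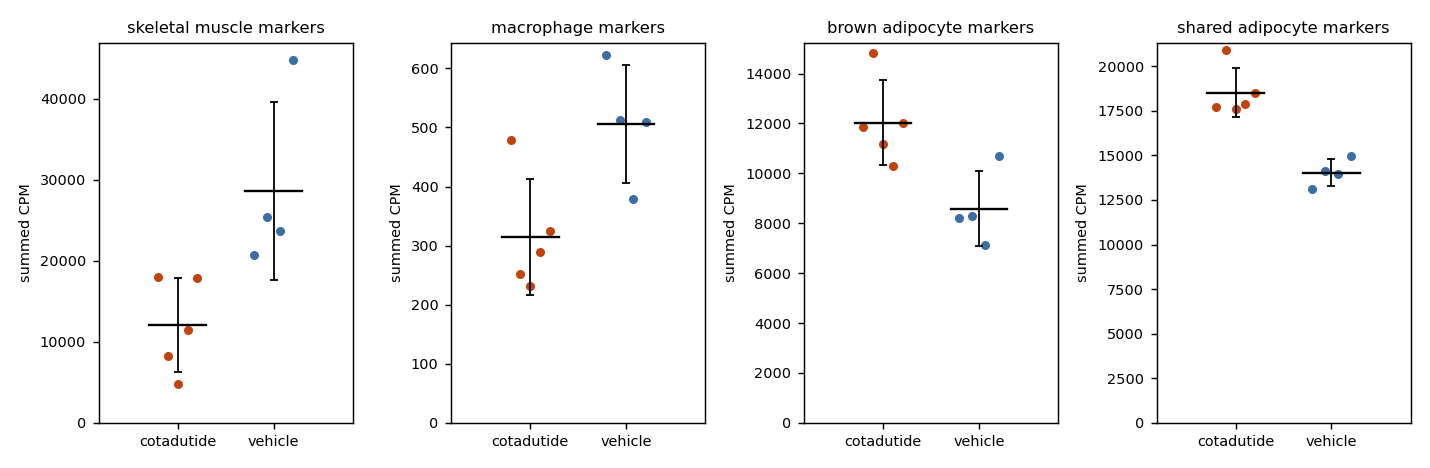
Summed CPM of 4 marker lists in each library (points), with the mean and SD per group, cotadutide (n = 5) left of vehicle (n = 4), each axis starting at 0. The muscle sums of the groups do not overlap, vehicle mouse 4 standing highest at 44838 CPM, and the macrophage sums overlap through cotadutide mouse 1 at 479 CPM.

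When a score of the macrophage or of the muscle markers was added to the model, edgeR called 0 of 14747 genes, while 1085 and 2395 had an unadjusted p under 0.05. The muscle score itself ran from -1.81 to 0.155 in cotadutide and from 0.396 to 1.44 in vehicle mice, without overlap. The macrophage score ran from -1.42 to 0.487 and from 0.167 to 1.19 in the same order. Both scores followed the group closely, so these fits cannot separate score from group, and the loss of calls decides nothing between them. All 14 members kept the sign of their change in both fits, which decides nothing between score and group either. The log2 fold change of Gpx3 was 0.73 with the macrophage score and 1.15 with the muscle score, and that of Nqo1 was -0.26 and -0.07. Gclc had -0.59 and -0.58, farther from 0 than without a score, Glrx5 had 0.40 with either, and Prdx5 had 0.21 and 0.31.

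Among the glutathione peroxidases, the secreted Gpx3 and the endoplasmic reticulum enzyme Gpx8 rose 2.22-fold and 2.31-fold, while Gpx1, Gpx4 and Gpx7 did not pass. Gpx3 (ENSMUSG00000018339, chromosome 11 from 54902453 to 54910377, plus strand), the selenoprotein that removes peroxides outside cells, stood at 1932, 3261, 2672, 2379 and 2217 CPM in cotadutide mice and at 956, 780.4, 1033 and 1721 CPM in vehicle mice. Every cotadutide mouse was above every vehicle mouse, and vehicle mouse 4 was well above the other vehicle mice. The means were 2492 ± 506 and 1123 ± 412 CPM (SD, n = 5 and 4), a 2.22-fold rise (log2 fold change 1.15 with SE 0.23, edgeR adjusted p = 0.0163). Gpx8 (ENSMUSG00000021760, chromosome 13 from 113042763 to 113046388, minus strand), a membrane protein of the endoplasmic reticulum that uses cysteine in place of selenocysteine, stood at 49.8, 83.0, 59.6, 68.0 and 51.3 CPM in cotadutide and at 22.1, 20.8, 27.7 and 37.8 CPM in vehicle mice. It had the largest rise of the members, 2.31-fold, again with no overlap between the groups (log2 fold change 1.21 with SE 0.20, edgeR adjusted p = 0.0145). Gpx4, which reduces lipid peroxides in membranes and so protects cells from ferroptosis, did not pass, although each cotadutide mouse (1442, 2021, 1568, 1412 and 1673 CPM) was above each vehicle mouse (1231, 1374, 1197 and 1408 CPM; log2 fold change 0.32 with SE 0.12, edgeR adjusted p = 0.0786). For Gpx4 the margin was small, 1412 CPM in the lowest cotadutide mouse and 1408 CPM in the highest vehicle mouse. Gpx1, the abundant peroxidase of cytosol and mitochondria, ranged over 389 to 494 CPM in cotadutide and 360.0 to 469.7 CPM in vehicle mice (log2 fold change 0.09 with SE 0.11). Gpx7, low in this tissue at 6.00 to 8.23 and 6.89 to 8.44 CPM in the same order, had a log2 fold change of -0.07 (SE 0.13). The selenocysteine and the cysteine enzymes were thus found both among the genes that rose and among those that did not pass.

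Gpx3 contributed more than any other member to the difference in their summed level. The sum of all 42 was 10853 ± 1227 CPM in cotadutide mice and 8175 ± 745 CPM in vehicle mice (SD, n = 5 and 4), and without Gpx3 it was 8360.4 ± 782 and 7053 ± 411 CPM. The order of the most abundant members depended on the length used. Per kilobase of the exon length in the count files, which can exceed the length of the mRNA, the order in cotadutide mice was Gpx3 at 1375 CPM per kb, Sod1 at 1071 and Gpx4 at 941. On that scale the order in vehicle mice was Gpx4 at 756, Sod1 at 719.6 and Gpx3 at 619 CPM per kb. Per kilobase of the principal transcript, Gpx4 was the highest in both groups, at 1692 CPM per kb in cotadutide and 1358 in vehicle mice. Gpx3 then stood at 1564 and 704 CPM per kb, and Sod1 at 1079.7 and 725 CPM per kb. Gsta3 was the lowest on both scales, at 0.465 CPM per kb of file length in cotadutide and 1.01 in vehicle mice, and at 1.39 and 3.00 per kb of the principal transcript. Mgst2 was next to last by file length, at 1.12 and 1.77 CPM per kb, but stood at 6.90 and 10.9 CPM per kb of its much shorter principal transcript.

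**Figure D3:**
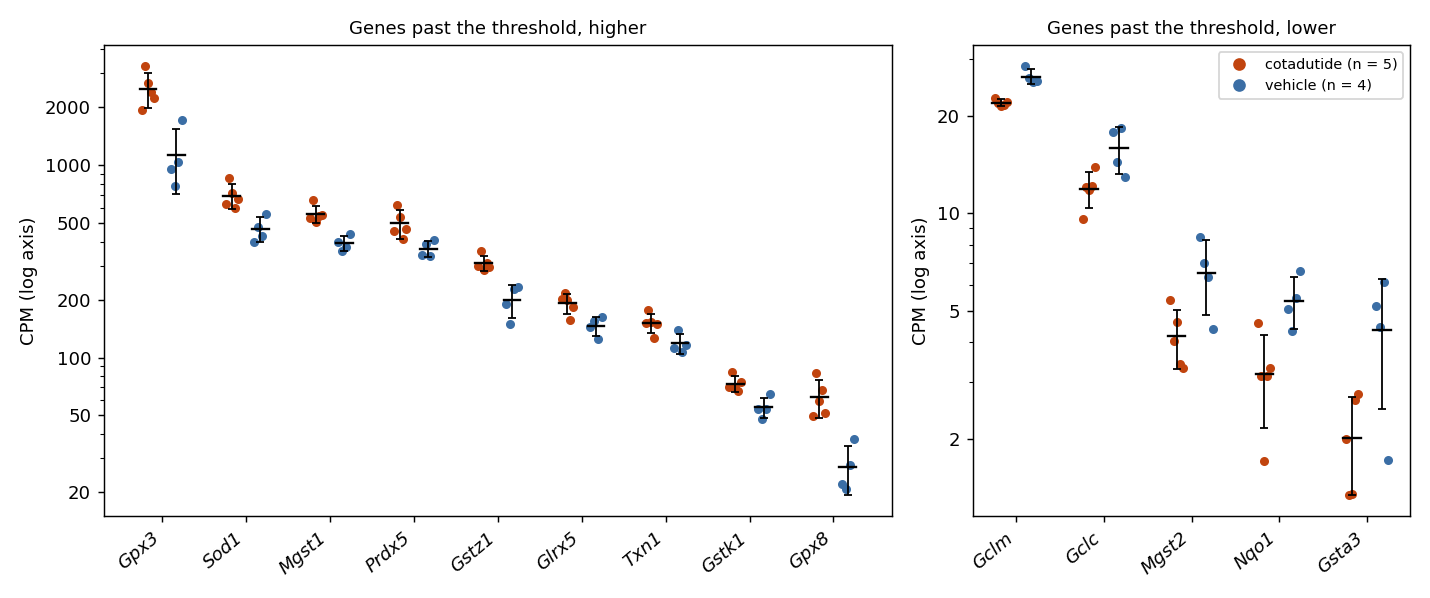
CPM on a log axis in each library (points) for the 9 genes that rose, left, and the 5 that fell, right, with the mean and SD per group and cotadutide left of vehicle for each gene. Gpx3, Gpx8, Prdx5, Sod1, Gstk1, Gstz1, Mgst1 and Gclm show no overlap, while single libraries overlap for the other 6.

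Of the peroxiredoxins, which reduce peroxide with a reactive cysteine, Prdx5 rose and the other 5 did not pass. Prdx5 (ENSMUSG00000024953, chromosome 19 from 6906697 to 6910106, minus strand), found in mitochondria, peroxisomes and cytosol, stood at 451, 623, 536, 415 and 462 CPM in cotadutide and 339.8, 388, 337 and 406 CPM in vehicle mice. The groups did not overlap, and cotadutide mouse 2 was the highest (log2 fold change 0.44 with SE 0.12, 1.35-fold, edgeR adjusted p = 0.0345). Exons of Prdx5 overlap those of Trmt112 on the opposite strand, and the strand setting of the counting is not given, so part of its reads may belong to the neighbour. Prdx3, the mitochondrial matrix peroxiredoxin, stood at 373, 448, 365, 412 and 410.0 CPM in cotadutide and 378, 348, 339 and 394 CPM in vehicle mice, which overlapped (log2 fold change 0.14 with SE 0.09, edgeR adjusted p = 0.289). Its cytosolic relative Prdx1 stood at 342, 387, 321, 331 and 401 CPM in cotadutide and 374, 376, 316 and 387 CPM in vehicle mice. That is a log2 fold change of -0.03 (SE 0.10), with each group spread across the other. Prdx2, a cytosolic enzyme abundant in red cells, ranged over 202 to 277 and 188 to 202 CPM (log2 fold change 0.25 with SE 0.10, edgeR adjusted p = 0.0878), and its exons overlap Junb and Rnaseh2a on the other strand. Prdx4 of the endoplasmic reticulum, at 9.71 to 15.6 and 10.1 to 11.5 CPM, and Prdx6, which also acts on phospholipid peroxides, at 288 to 334 and 259 to 333 CPM, overlapped between the groups (log2 fold changes 0.14 and 0.01). Srxn1, sulfiredoxin, repairs overoxidised peroxiredoxins and is a target of NRF2. It lay at 58.2, 50.8, 43.3, 50.2 and 53.0 CPM in cotadutide and 67.1, 69.8, 49.4 and 66.9 CPM in vehicle mice and did not pass (log2 fold change -0.31 with SE 0.11, edgeR adjusted p = 0.0725). Of its vehicle mice only mouse 3 lay within the cotadutide range.

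In the thioredoxin system 1 of the 4 members rose, the cytosolic thioredoxin. Txn1 (ENSMUSG00000028367, chromosome 4 from 57943373 to 57956411, minus strand), cytosolic thioredoxin, stood at 152, 176, 152, 127 and 149 CPM in cotadutide and 112, 139, 106 and 117 CPM in vehicle mice, and rose 1.28-fold (log2 fold change 0.35 with SE 0.11, edgeR adjusted p = 0.0448). Only cotadutide mouse 4 lay below the highest vehicle mouse. The call held in 5 of 19 alternative fits, and with median-ratio scaling the edgeR adjusted p was 0.0510. Txn2, mitochondrial thioredoxin, had about the same log2 fold change, 0.33 (SE 0.12), and did not pass (edgeR adjusted p = 0.0737). Its values were 362, 416, 336, 329 and 354 CPM in cotadutide and 263, 283, 241 and 356 CPM in vehicle mice, where vehicle mouse 4 lay inside the cotadutide range and the other 3 below it. Without vehicle mouse 4 it passed, with a log2 difference of 0.46 (edgeR adjusted p = 0.00891). Txnrd1, the cytosolic reductase, stood at 69.1, 60.3, 61.8, 68.3 and 58.9 CPM in cotadutide and 61.4, 64.2, 66.7 and 72.5 CPM in vehicle mice (log2 fold change -0.06 with SE 0.08). Txnrd2, the mitochondrial reductase, stood at 97.6, 104, 97.4, 87.0 and 96.4 CPM and 94.6, 104, 81.0 and 82.6 CPM in the same order (log2 fold change 0.09 with SE 0.09). Both overlapped between the groups.

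Sod1 rose and the other dismutases did not pass. Sod1 (ENSMUSG00000022982, chromosome 16 from 90220742 to 90226322, plus strand), the copper and zinc enzyme of the cytosol, stood at 625, 856, 718, 599 and 663 CPM in cotadutide and 398, 474, 430.0 and 558 CPM in vehicle mice, with no overlap. It averaged 692 ± 102 and 465 ± 69.1 CPM (SD, n = 5 and 4), 1.49-fold higher (log2 fold change 0.57 with SE 0.13, edgeR adjusted p = 0.0192). Ccs, which loads copper into Sod1 and is not among the 42, also rose, at 65.0, 98.3, 92.0, 63.0 and 71.5 CPM in cotadutide and 42.5, 46.6, 45.8 and 53.0 CPM in vehicle mice (1.66-fold, edgeR adjusted p = 0.0156), with no overlap. Sod2, the manganese enzyme of the mitochondrial matrix, stood at 709, 871, 721, 745 and 754 CPM in cotadutide and 712, 719.8, 591 and 728 CPM in vehicle mice (log2 fold change 0.14 with SE 0.10, edgeR adjusted p = 0.315). Sod3, secreted into the matrix around cells, ranged over 231 to 266 CPM and 234 to 291 CPM (log2 fold change -0.04 with SE 0.09). Both overlapped between the groups.

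The subunits of glutamate-cysteine ligase, the first and rate-limiting enzyme of glutathione synthesis, both fell. The call held in 9 of 19 alternative fits for Gclc and in 12 of 19 for Gclm. Gclc (ENSMUSG00000032350, chromosome 9 from 77754535 to 77794485, plus strand), the catalytic subunit, stood at 9.62, 12.1, 11.8, 12.2 and 13.9 CPM in cotadutide and 17.9, 14.4, 18.4 and 13.0 CPM in vehicle mice. Cotadutide mouse 5 lay above vehicle mouse 4 and every other cotadutide mouse below every vehicle mouse (log2 fold change -0.42 with SE 0.13, 1.34 times lower, edgeR adjusted p = 0.0459). Gclm (ENSMUSG00000028124, chromosome 3 from 122245557 to 122270732, plus strand), the modifier subunit, had a narrow spread, at 22.8, 22.0, 21.6, 21.6 and 22.2 CPM in cotadutide and 28.6, 26.2, 25.5 and 25.8 CPM in vehicle mice. The groups did not overlap, with a log2 fold change of -0.27 (SE 0.07, 1.204 times lower, edgeR adjusted p = 0.0277). Gss, which adds the last amino acid, did not pass and stood at 50.6, 64.0, 56.1, 52.9 and 55.1 CPM in cotadutide and 53.7, 48.8, 47.1 and 48.0 CPM in vehicle mice (log2 fold change 0.17 with SE 0.08, edgeR adjusted p = 0.153). Gsr, which regenerates reduced glutathione, ranged over 19.4 to 22.9 CPM and 19.1 to 23.1 CPM (log2 fold change -0.02 with SE 0.09). Gclm and Gss overlap other genes on the opposite strand in the counted exons.

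All 3 glutaredoxins, small proteins that reduce disulfides with glutathione or carry iron-sulfur clusters, were above 0 in log2 fold change, and 1 passed. Glrx5 (ENSMUSG00000021102, chromosome 12 from 105032689 to 105040910, plus strand), the mitochondrial carrier of iron-sulfur clusters, stood at 202, 217, 199.7, 156 and 183 CPM in cotadutide and 144, 154, 124 and 162 CPM in vehicle mice, 1.31-fold higher (log2 fold change 0.39 with SE 0.11, edgeR adjusted p = 0.0345). Cotadutide mouse 4 lay within the vehicle range and the other 4 above it. Glrx2, mainly mitochondrial, stood at 38.6, 42.9, 41.7, 34.5 and 38.9 CPM in cotadutide and 31.4, 32.6, 32.3 and 36.8 CPM in vehicle mice (log2 fold change 0.24 with SE 0.08, edgeR adjusted p = 0.0656). Cytosolic Glrx stood at 13.0, 12.5, 12.9, 13.3 and 12.4 CPM and 10.8, 11.7, 10.1 and 13.1 CPM in the same order (log2 fold change 0.16 with SE 0.10), with a single vehicle mouse, mouse 4, inside the cotadutide range.

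Nqo1 (ENSMUSG00000003849, chromosome 8 from 107388225 to 107403206, minus strand), the quinone reductase that is a standard readout of NRF2, fell, while the mRNAs of NRF2 and Keap1 did not pass. Nqo1 was low in this tissue, at 4.58, 3.14, 1.71, 3.14 and 3.33 CPM in cotadutide and 5.06, 4.32, 5.48 and 6.64 CPM in vehicle mice (1.67 times lower, log2 fold change -0.74 with SE 0.23, edgeR adjusted p = 0.0472). Cotadutide mouse 1 lay inside the vehicle range and the other 4 below it. Nfe2l2 stood at 56.2, 63.3, 59.3, 64.3 and 57.3 CPM in cotadutide and 68.1, 56.1, 65.5 and 67.6 CPM in vehicle mice (log2 fold change -0.10 with SE 0.08), and Keap1 ranged over 45.02 to 50.0 CPM and 43.0 to 54.3 CPM (log2 fold change -0.01 with SE 0.08). A p above the threshold does not show that such values were equal.

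Most cytosolic glutathione S-transferases, which join glutathione to electrophiles, did not pass: 1 of 9 rose, 1 fell and 7 did neither. That is 11.1% in each direction, near the 9.31% higher and 9.34% lower of all genes tested. Gstz1 (ENSMUSG00000021033, chromosome 12 from 87147707 to 87164721, plus strand), the maleylacetoacetate isomerase of tyrosine breakdown, stood at 300.4, 358, 286, 309.6 and 295 CPM in cotadutide and 189, 149, 228 and 233 CPM in vehicle mice. The groups did not overlap, and the rise was 1.55-fold (log2 fold change 0.63 with SE 0.13, edgeR adjusted p = 0.0167). Pomt2 overlaps its exons on the other strand. Gsta3 (ENSMUSG00000025934, chromosome 1 from 21240589 to 21265661, plus strand), an alpha class enzyme, was the lowest of the 42 per length, at 2.01, 1.35, 1.35, 2.64 and 2.76 CPM in cotadutide and 5.17, 4.44, 6.13 and 1.73 CPM in vehicle mice. It fell 2.171 times (log2 fold change -1.12 with SE 0.34, edgeR adjusted p = 0.0458), although vehicle mouse 4 lay inside the cotadutide range, and it missed the threshold by limma-voom (adjusted p = 0.0767). Gsta4, which acts on the lipid peroxidation product 4-hydroxynonenal, ranged over 59.7 to 84.6 CPM in cotadutide and 55.7 to 59.3 CPM in vehicle mice with no overlap, and did not pass (log2 fold change 0.27 with SE 0.09, edgeR adjusted p = 0.0608). Gsto1, of the omega class, ranged over 89.8 to 117 and 77.1 to 91.6 CPM (log2 fold change 0.26, edgeR adjusted p = 0.0613). Gstm1, Gstm2, Gstm5, Gstt1 and Gstp1 had log2 fold changes of -0.07, -0.17, 0.02, 0.17 and 0.08. They stood at 125.9 to 145, 36.8 to 44.8, 31.3 to 34.6, 26.2 to 35.6 and 95.1 to 114 CPM in cotadutide mice. In vehicle mice they stood at 124 to 157, 38.8 to 51.0, 30.8 to 33.8, 19.99 to 31.0 and 89.5 to 119 CPM, so each overlapped. The mu and pi class genes have close copies beside them, and the split of reads among copies is uncertain.

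Gstk1, the kappa class transferase, and Mgst1 rose, and Mgst2, membrane-bound like Mgst1, fell. Gstk1 (ENSMUSG00000029864, chromosome 6 from 42245935 to 42250447, plus strand), of mitochondria and peroxisomes, stood at 70.2, 84.1, 70.0, 67.2 and 74.2 CPM in cotadutide and 53.7, 48.2, 54.1 and 64.3 CPM in vehicle mice. It rose 1.33-fold with no overlap (log2 fold change 0.41 with SE 0.10, edgeR adjusted p = 0.0215). Mgst1 (ENSMUSG00000008540, chromosome 6 from 138140316 to 138156755, plus strand), a transferase and peroxidase of the endoplasmic reticulum and the outer mitochondrial membrane, stood at 529, 654, 507, 546 and 548 CPM in cotadutide and 399, 356, 375 and 436 CPM in vehicle mice. It rose 1.42-fold, and its lowest cotadutide value was above its highest vehicle value (log2 fold change 0.51 with SE 0.10, edgeR adjusted p = 0.0161). Mgst2 (ENSMUSG00000074604, chromosome 3 from 51660360 to 51682677, plus strand), which can make the inflammatory lipid leukotriene C4, stood at 5.40, 4.04, 4.62, 3.41 and 3.33 CPM in cotadutide and 8.48, 7.03, 6.36 and 4.38 CPM in vehicle mice. It fell 1.57 times (log2 fold change -0.65 with SE 0.21, edgeR adjusted p = 0.0469), with overlap through vehicle mouse 4, and by limma-voom it missed the threshold (adjusted p = 0.0550). Mgst3 ranged over 51.2 to 90.9 CPM in cotadutide and 80.5 to 107 CPM in vehicle mice and did not pass (log2 fold change -0.36 with SE 0.17, edgeR adjusted p = 0.159).

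Sorted by compartment, the enzymes of the mitochondrial class all lay on the same side of 0 and the cytosolic ones on both. The difference between the compartments was not tested. All 8 mitochondrial members (Txn2, Txnrd2, Prdx3, Prdx5, Sod2, Glrx2, Glrx5 and Gstk1) had log2 fold changes above 0, 0.09 to 0.44, with a median of 0.29; 3 rose and 0 fell. The 21 cytosolic members spread from -1.12 to 0.63 around a median of 0.02, where 3 rose and 4 fell. Over all genes tested the median was 0.003, with 9.31% higher and 9.34% lower. The same shares were 37.5% and 0% for the mitochondrial class and 14.3% and 19.0% for the cytosolic class. The median log2 fold change was 0.36 for the brown and 0.33 for the shared adipocyte markers. It was -0.79 for the macrophage and -1.21 for the skeletal muscle markers. Whether the mitochondrial class differs from these lists was not tested. The mitochondrial median was 0.14 without Prdx5, Glrx2 and Gstk1, whose products are also found elsewhere. No such value is given for the cytosolic class, whose products may also be found elsewhere. Gpx1, Gpx4 and Gsr, of both cytosol and mitochondria, were counted in neither class and had log2 fold changes of 0.09, 0.32 and -0.02. Mgst1, partly of the outer mitochondrial membrane, was classed with the secreted, endoplasmic reticulum or membrane members. Summed, the mitochondrial members reached 2419 ± 223 CPM in cotadutide and 2031 ± 179 CPM in vehicle mice, and the cytosolic ones 2776 ± 229 and 2368 ± 134 CPM (SD, n = 5 and 4). The ratio of the sums within a library, 0.860 to 0.885 in cotadutide and 0.797 to 0.889 in vehicle mice, overlapped.

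Ratios within a library do not depend on scaling, and 5 pairs of a mitochondrial enzyme and its cytosolic counterpart were tested (exact permutation over libraries, two-sided, p adjusted over the 5 pairs). The Sod2 to Sod1 ratio was 1.13, 1.02, 1.00, 1.24 and 1.14 in cotadutide mice and 1.79, 1.52, 1.37 and 1.31 in vehicle mice. Every cotadutide ratio was lower than every vehicle ratio (difference in log2 ratio -0.43, SE 0.12, exact permutation p = 0.0159, the smallest this test can give, adjusted p = 0.0794). The Prdx3 to Prdx1 ratio was 1.09, 1.16, 1.14, 1.246 and 1.02 in cotadutide and 1.01, 0.926, 1.07 and 1.02 in vehicle mice. It overlapped slightly and was higher under cotadutide on average (difference 0.17, SE 0.06, exact permutation p = 0.0317, adjusted p = 0.0794). Neither passed after adjustment, which does not show equal ratios. Over 5 pairs, a lone pair at the smallest p has an adjusted p of 0.0794, so it could not have passed alone. The mitochondrial partner was relatively lower in the first pair and higher in the second. The differences for Txnrd2 to Txnrd1, Glrx2 to Glrx and Txn2 to Txn1 were 0.16 (SE 0.15), 0.07 (SE 0.08) and -0.01 (SE 0.13). Their exact permutation p values were 0.302, 0.444 and 0.905, and each overlapped between the groups.

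**Figure D4:**
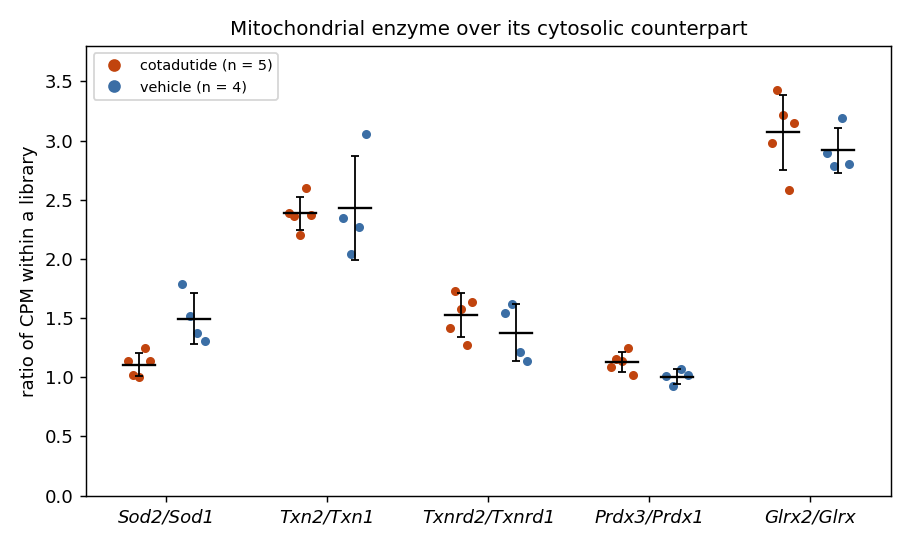
Ratio of the CPM of a mitochondrial enzyme to that of its cytosolic counterpart within each library (points), with the mean and SD per group, cotadutide left of vehicle. The Sod2 to Sod1 ratios lie at 1.00 to 1.24 in cotadutide and 1.31 to 1.79 in vehicle mice, without overlap, and the other 4 pairs overlap.

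Outside the 42, more genes of a list of NRF2 partners and textbook targets fell than rose. Of 26 tested, 7 fell, 2 rose and 17 did not pass, with a median log2 fold change of -0.10. Over all genes tested, 9.34% fell and 9.31% rose, and the list was not tested against that share. Hmox1, heme oxygenase and a known macrophage gene too, stood at 15.4, 7.95, 7.26, 16.6 and 10.9 CPM in cotadutide and 35.2, 33.4, 15.6 and 19.8 CPM in vehicle mice (2.23 times lower, edgeR adjusted p = 0.0277). Sqstm1, an autophagy receptor that binds Keap1, stood at 281, 221, 216, 233 and 278 and 364, 345, 343 and 312 CPM in the same order, with no overlap (1.39 times lower, edgeR adjusted p = 0.0184). Me1, the malic enzyme that supplies cytosolic NADPH, fell 1.79 times, the glutathione conjugate exporter Abcc1 1.42 times, and Mafg, a DNA-binding partner of NRF2, 1.28 times (edgeR adjusted p = 0.0266, 0.0225 and 0.0241). The other small partner Mafk and Osgin1 fell too (edgeR adjusted p = 0.0361 and 0.0483). Against that direction, Cbr1, a carbonyl reductase, rose 1.62-fold and Blvrb, biliverdin reductase B, 1.35-fold (edgeR adjusted p = 0.0163 and 0.0185). The macrophage markers given earlier fell with these genes. Their part in the result was not tested, since the covariate fits cannot separate the score from the group.

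**Figure D5:**
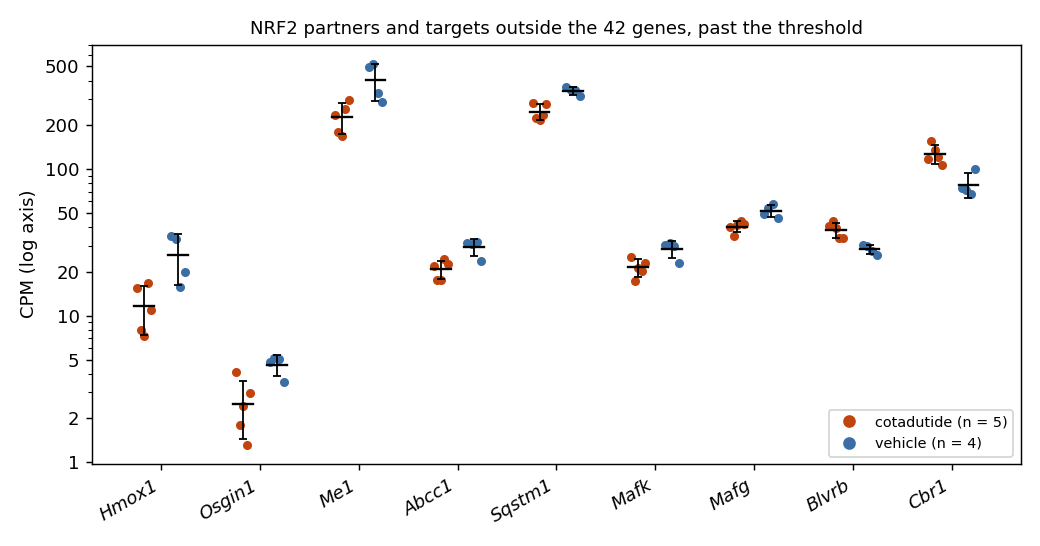
CPM on a log axis in each library (points) for the NRF2 partners and targets outside the 42 genes that passed the threshold, ordered by log2 fold change from the lowest on the left, with the mean and SD per group and cotadutide left of vehicle. Hmox1 is lowest at -1.16 and Cbr1 highest at 0.70, and the groups do not overlap for Sqstm1, Mafg, Blvrb and Cbr1.

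The rest of the pathway moved in both directions. The counts below stand beside 9.31% of all genes tested higher and 9.34% lower, and no list was tested against that share. Of 13 other transferases tested, 4 rose and 2 fell: Gstt2, a theta class enzyme, rose 1.97-fold (41.7, 54.2, 50.7, 47.3 and 46.0 CPM in cotadutide, 21.4, 19.5, 24.2 and 32.2 CPM in vehicle mice, edgeR adjusted p = 0.0122), and Gstm7 2.13-fold (edgeR adjusted p = 0.0153). Gsto2 and Gstp3 rose too, while Hpgds and Alox5ap, genes of prostaglandin and leukotriene synthesis in blood-derived cells, fell (edgeR adjusted p = 0.0334 and 0.0429). Of 22 other genes of oxidant defence, 4 rose and 2 fell. Besides Ccs and Hmox1 these were Prxl2a, a peroxiredoxin-like protein listed as Fam213a (1.33-fold), the mitochondrial methionine sulfoxide reductase Msrb2 (1.27-fold), Hagh of the glyoxalase pathway (1.28-fold) and Msrb3, which fell 1.48 times. Catalase, encoded by Cat, did not pass, at 697 to 796 and 599.6 to 718 CPM (log2 fold change 0.15). Of 17 genes that supply, carry or break down glutathione, 3 rose and 1 fell. Oplah, which recycles 5-oxoproline, rose 1.42-fold, the mitochondrial glutathione importer Slc25a39 1.253-fold, and Cbs, of cysteine synthesis, 3.97-fold from a low level (3.19, 3.27, 2.99, 1.65 and 2.00 CPM in cotadutide, 0.272, 0.370, 0.353 and 1.73 CPM in vehicle mice). Slc7a11, the cystine importer, had too few counts to enter the test.

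Genes of NADPH supply followed the same mixed pattern, with 4 of 20 higher and 1 lower. The share of all genes tested, 9.31% higher and 9.34% lower, stands beside this count and those that follow. Pgls of the pentose phosphate pathway rose 1.56-fold, the folate enzyme Aldh1l1 1.41-fold and the NAD kinases Nadk 1.37-fold and Nadk2 1.26-fold (edgeR adjusted p = 0.0215, 0.0156, 0.0209 and 0.0332), and Me1 fell. Nnt mRNA was at 3.91 to 14.7 CPM in cotadutide and 9.50 to 19.1 CPM in vehicle mice (edgeR adjusted p = 0.211). Of 10 genes of selenoprotein synthesis, 1 rose, Trnau1ap (1.36-fold, edgeR adjusted p = 0.0364), and 0 fell by edgeR. Of 10 genes tested from a list of NADPH oxidases, their partners and Xdh, 0 rose and 2 fell. Of these, Cybb stood at 7.72, 4.23, 6.54, 5.56 and 7.14 CPM in cotadutide and 13.8, 12.3, 7.72 and 10.7 CPM in vehicle mice (1.80 times lower, edgeR adjusted p = 0.0204), again beside lower macrophage markers.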

How the data were processed

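RNA of brown adipose tissue (30 mg per mouse) was sequenced from 5 cotadutide and 4 vehicle mice. Each deposited file gives the authors' read counts, not normalized, for the Ensembl genes of 1 library. Per the submitters' processing notes, the tools were STAR 2.5.2b, Trimmomatic 0.36, bcl2fastq 2.17 and featureCounts (Subread 1.5.2), on build mm10. For the strand setting and annotation release, nothing is given in the sources used here. Symbols were matched for 48970 of 49315 genes, and coordinates are those of the files. edgeR 4.0.16 in R 4.3.3 (filterByExpr, trimmed mean of M values, robust quasi-likelihood) was fitted to all 9 libraries and all 14747 genes passing the filter, with the group as the only term. SE is the size of the log2 fold change over the square root of F. The common biological coefficient of variation was 17%. The fit was tested on simulated data. Pair ratios were compared with scipy 1.17.1. Levels per length use the files' exon lengths or the principal transcript. Alternatives were DESeq2 1.42.0, limma 3.58.1 (voom), other scalings, filters, covariates, a replicate block, and leaving out each library. The members, lists and classes were chosen with earlier results of these data known. Named genes were all members and, from each list, up to 5 past the threshold with the smallest adjusted p; Hagh, Alox5ap, Mafk, Osgin1, Elane and Emcn, and Cat, Nnt, Slc7a11 and Ucp1, which were not called or not tested, are named beyond that, after their values were seen. Some items are not reported here. Libraries came from separate mice, and no pair of them was alike within counting noise (lowest chi-square per degree of freedom 12.69).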

Additional observations from a re-analysis of the deposited data

Results flagged for a closer look

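Among 94 groups of values examined (each member and each pair ratio in each group), 5 had 1 library far from the others, where chance flags about 1 in 20. Cotadutide mouse 2 stood apart as the highest for Prdx6 (334 CPM, the other 4 at 288 to 291), Sod2 (871 CPM, the others at 709 to 754) and Mgst1 (654 CPM, the others at 507 to 548). Vehicle mouse 3 stood apart as the lowest for Sod2 (591 CPM, the others at 712 to 728) and Srxn1 (49.4 CPM, the others at 66.9 to 69.8). Cotadutide mouse 2 was the highest of its group for 23 of the 42 members, or 19 without the scaling of library totals, and its scaling factor of 0.914 was the lowest of the 9 libraries. Vehicle mouse 4 was the highest of its group for 24 members, or 13 without the scaling.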

How the results depend on the processing

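All 14 members past the threshold kept their direction in every alternative fit that could be made, and kept their call in 149 of 264 such fits. They were picked from the libraries that these fits reuse, so the kept direction is not separate support. Of 19 fits each, the call held in 15 for Gpx3 and Gpx8, 14 for Gstz1 and Mgst1, and 13 for Sod1 and Gstk1. It held in 12 for Gclm, 10 for Prdx5, 9 for Gclc and Glrx5, 7 for Mgst2 and 5 for Txn1. Of 18 fits each, it held in 7 for Nqo1 and 6 for Gsta3. Beside 2751 genes called, with 9 members higher and 5 lower, both covariate fits called 0 genes and 0 members by edgeR (6 and 11 members at an unadjusted p under 0.05 with the macrophage and the muscle score). A fit with a replicate block on the mouse number, over numbers 1 to 4, called 1355 genes, 2 members higher (Gpx3 and Gpx8) and 0 lower (16 members unadjusted). Deviations from the group mean correlated weakly between same-numbered mice (correlations 0.131, -0.0503, 0.0339 and -0.0298). Differently numbered mice were not compared, so this does not show whether the number pairs the mice. Under the replicate block the exact permutation p of a pair ratio cannot go under 0.125. Leaving out 1 library gave 139 to 3704 genes, 0 to 11 members higher and 0 to 4 lower. Genes numbered 139, 147 and 738 without vehicle mice 1, 2 and 3, and 814 and 1364 without cotadutide mice 2 and 3. Limma-voom and the stricter filter each called 3 members lower, and the stricter filter left Nqo1 and Gsta3 untested. The mitochondrial median was 0.144 without Prdx5, Glrx2 and Gstk1, and without 1 library the cytosolic median ranged from -0.0103 to 0.0666 and the Txn2 to Txn1 difference from -0.0892 to 0.105. The causes were not tested.

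Sign changes were seen only among members not called with all libraries. With the muscle score, log2 fold changes were 0.0074 for Gpx7, 0.119 for Gsr, 0.0530 for Keap1, 0.152 for Mgst3, 0.0947 for Prdx1 and 0.0459 for Txnrd1. With the macrophage score they were 0.0665 for Gpx7, 0.133 for Gsr, -0.0060 for Gstm5, 0.0309 for Keap1, 0.0533 for Prdx1, 0.0881 for Sod3, 0.0144 for Srxn1 and 0.0083 for Txnrd1. Gstm5 was at -0.0253 and Prdx6 at -0.0379 with no filter, -0.0062 and -0.0202 without mitochondrially encoded genes, and -0.0120 and -0.0086 with the replicate block, and Prdx6 at -0.0071 with the stricter filter. Without 1 library the ranges were -0.0805 to 0.0099 for Gsr, -0.0126 to 0.0323 for Gstm5, -0.0723 to 0.0471 for Keap1, -0.0991 to 0.0039 for Prdx1, -0.0607 to 0.0666 for Prdx6 and -0.0947 to 0.0185 for Sod3.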
